A study of Homo sapiens with 24 samples.

Results

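The mRNAs that encode the miRNA processing enzymes were followed by the Argonaute 2 (Ago2) crosslinking signal on them. The 7 genes asked for were DGCR8, DROSHA, XPO5, DICER1, TARBP2, PRKRA and ADAR, and members were all Ago2 peaks annotated to one of these gene names. The authors' deposited peak table listed 5 of the 7, with 52 of its 24041 peaks: 24 in DICER1, 14 in ADAR, 7 in DGCR8, 5 in DROSHA and 2 in TARBP2. XPO5 and PRKRA were not listed, neither under these names nor under an older name. Cells of the 293S line, derived from human embryonic kidney and grown as an adherent layer, received 1 mM sodium arsenite for 30 min or no treatment. Arsenite reacts with thiols, blocks translation initiation and induces stress granules. Each treatment had 4 biological replicates, and each replicate gave a CLIP library (RNA crosslinked to Ago2 and immunoprecipitated), an RNA-seq library and a CLIP library of the LO band, from which the miRNAs were quantified. All groups come from 1 cell line with unmodified Ago2, and no untreated or treated group without the antibody was analysed here.

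Most miRNAs are cut out of a long primary transcript in the nucleus by the Microprocessor, in which the RNase DROSHA is held in place by the double-stranded RNA binding protein DGCR8. Exportin-5 (XPO5) carries the hairpin to the cytoplasm, where the RNase DICER1, with its partners TRBP (TARBP2) and PACT (PRKRA), trims it to a duplex that is loaded onto an Argonaute. ADAR edits adenosines in double-stranded RNA, primary miRNA transcripts among them. The mRNAs of these enzymes are themselves regulated by the pathway: the Microprocessor cleaves hairpins in the DGCR8 mRNA, and DICER1 is a known target of let-7 and of the miR-103 family.

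Of the 50 seed families that the authors matched to peaks, 19 matched a peak of these mRNAs. The mature miRNAs below are the most abundant members of some of the families named in the results, printed because their seeds define the matches. Sequences are from RefSeq (GRCh38.p14), 5′ to 3′, with the seed (bases 2 to 8) in capitals.
let-7a-5p: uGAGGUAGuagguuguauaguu
miR-196b-5p: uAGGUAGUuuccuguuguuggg
miR-103a-3p: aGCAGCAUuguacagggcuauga
miR-16-5p: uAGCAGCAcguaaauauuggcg
miR-18a-5p: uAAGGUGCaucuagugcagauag
miR-19b-3p: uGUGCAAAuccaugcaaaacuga
miR-301a-3p: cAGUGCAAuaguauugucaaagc
miR-30e-5p: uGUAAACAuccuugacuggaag
miR-92a-3p: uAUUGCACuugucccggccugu
miR-146b-5p: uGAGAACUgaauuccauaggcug
The seeds of let-7 and miR-196 share the 6 bases AGGUAG, and those of miR-19 and the miR-130 family (miR-301a among it) share GUGCAA, so a peak listed for both families of such a pair may hold a single stretch that matches each. Every family of these 19 with more than 1 member found in RefSeq had the same seed in all found members.

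Each peak carries the authors' log ratio of normalized CLIP abundance, arsenite over untreated, and a log average over both treatments. The log base and the normalizer are not stated, so values are not turned into folds, and more Ago2 per mRNA cannot be told apart from more mRNA. There is 1 value per peak over all replicates, hence no standard deviation, no p-value and no sequencing depth for any peak. Peaks of a gene share its RNA, and 14 of the 52 overlap another member peak, so they are not replicates. Over all peaks of the table, 70.3% of log ratios lay above 0, 39.1% at or above 1 and 7.43% at or below -1, with a median of 0.65. Of the member peaks, 34 of 52 lay above 0, 24 at or above 1 and 6 at or below -1, with a median of 0.85. The pooled shares were thus near those of the table, while the genes stood at different places within it.

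**Figure D1:**
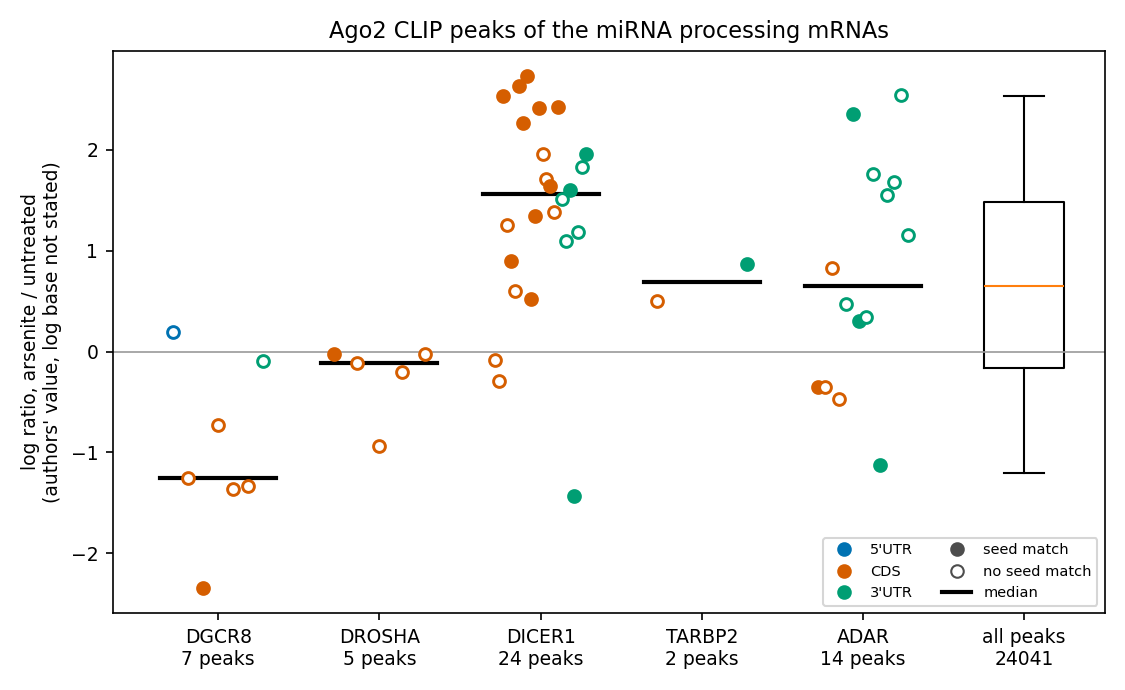
Log ratio (arsenite over untreated, the authors' value) of each Ago2 peak, by gene, with peaks in 5′ to 3′ order within a gene, colour for the region, filled points for a seed match and a bar for the median; the box shows all 24041 peaks (quartiles, with whiskers at the 5th and 95th percentiles). The DGCR8 median lies at -1.26 and the DROSHA median at -0.11, against 1.56 for DICER1, 0.69 for TARBP2 and 0.65 for ADAR.

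The 2 Microprocessor mRNAs carried mostly negative log ratios. Of the 12 peaks of DGCR8 and DROSHA, 11 lay below 0, where 29.7% of all peaks did, and none lay at or above 1. The 4 at or below -1, where 7.43% of all peaks lay, were all in DGCR8, and the DROSHA median was -0.11. The 26 peaks of DICER1 and its partner TARBP2 had 3 below 0 and 18 at or above 1, where 29.7% and 39.1% of all peaks lay. A seed was matched by 2 of the 12 Microprocessor peaks, against 31.5% of all peaks. The 10 without a match, some of which overlap, had a median of -0.46, with 9 below 0, where 33.8% of all peaks without a match were. The part of the seed matches in these values was not tested. The 12 DICER1 and TARBP2 peaks without a match had a median of 1.22, with 10 above 0, where 66.2% of all peaks without a match were.

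DGCR8 lies on the plus strand of chromosome 22, and 6 of its 7 peaks fell into 1 stretch of 723 nt (hg19, chr22:20073483-20074205). The first of them, in the 5'UTR, had a log ratio of 0.20. The next 5 were annotated as coding sequence (CDS) and had -1.26, -2.34, -0.73, -1.36 and -1.33 in 5′ to 3′ order. All 5 lay below 0, and 4 of them at or below -1, where 31.6% and 8.02% of all CDS peaks did. The lowest, at chr22:20073759-20073837, overlaps the one before it and matches the miR-146 seed, for which 64.9% of 77 peaks lay above 0. It also had the highest log average of the gene, -5.12. A single 3'UTR peak, 23509 nt downstream in the genome, had -0.09. The values of -0.73 and lower were therefore all in the early coding sequence, and the single 5'UTR and 3'UTR peaks stood near 0. The 5'UTR peak was close to the median of all 5'UTR peaks, 0.25. The 3'UTR peak was below the lower quartile of all 3'UTR peaks, 0.047, so low values were not confined to the CDS.

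The median of DGCR8 was -1.26 when overlapping peaks were counted separately. Among the 1442 genes with at least 5 peaks, 6 had a lower median and 1435 a higher one. The median of these genes' medians was 0.65. Of the 5 CDS peaks 4 overlap in 2 pairs, and with 1 peak per overlapping set in every gene, the one of the highest log average, the DGCR8 median was -0.73 over 5 peaks. Then 37 of 1214 genes with at least 5 peaks were lower and 1176 higher. DGCR8 peaks were not unusually weak, since 1 of the 7 lay in the lowest 25% of log averages.

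DROSHA, on the minus strand of chromosome 5, had 5 peaks, all in the CDS. Their log ratios were -0.02, -0.11, -0.94, -0.02 and -0.20 in 5′ to 3′ order. All 5 lay below 0, but 4 of them lay within 0.21 of it, and the median was -0.11. Of the 1442 genes with at least 5 peaks, 1.32% had every peak below 0. DROSHA has the minimum of 5 and others have more, so this is not the share among genes of like peak number. In the order of medians of the 1442 genes DROSHA was less extreme than DGCR8, with 232 genes lower and 1209 higher. Counting CDS peaks alone, DGCR8 and DROSHA were 2 of the 12 genes, or 2.9% of the 414 with at least 5 CDS peaks, in which every CDS peak was below 0. Both have the minimum of 5 CDS peaks, and 4 of those of DGCR8 overlap in 2 pairs. The share is thus not one for genes of like peak number. The first DROSHA peak (chr5:31526882-31526941) matches the seed of the miR-25 family (miR-92a among it) and had -0.02, whereas 95.3% of the 430 peaks with that match lay above 0 and their median was 1.72.

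DICER1, on the minus strand of chromosome 14, carried mostly positive log ratios. Of its 24 peaks 21 lay above 0 and 18 at or above 1, where 70.3% and 39.1% of all peaks did. The values centred on 1.56 (quartiles 1.04 and 2.04). Among the 151 genes with at least 20 peaks, 148 had a lower median and 2 a higher one. Among the 1442 with at least 5 peaks, 1272 were lower and 169 higher, and among all 6088 genes, most of them with fewer peaks, 4512 were lower and 1575 higher. The place of DICER1 was thus high among the genes with at least 20 peaks, whose medians centred on 0.28. It was less so over all genes, whose medians centred on 0.91. Both sets include noncoding RNAs.

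Ago2 peaks on DICER1 lay mainly in the coding sequence, with 17 in the CDS and 7 in the 3'UTR. Of all 24041 peaks, 8303 were in the CDS and 12251 in the 3'UTR. The median log ratio was 1.64 in the CDS, against 0.58 over all CDS peaks, and 1.52 in the 3'UTR, against 0.88 over all 3'UTR peaks. The 3'UTR median of DICER1 was thus 0.13 below its CDS median. Over the 407 genes with at least 3 peaks in both regions, the 3'UTR median was typically 0.21 above the CDS median (quartiles -0.37 and 0.73), and 135 genes had a lower difference than DICER1. The first 2 CDS peaks from the 5′ end had -0.08 and -0.29, and the other 15 ranged from 0.52 to 2.73.

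Of the 17 CDS peaks, 10 matched a seed, as did 2210 of all 8303 CDS peaks. All of these 10 lay above 0, where 77.6% of all CDS peaks with a match and 68.4% of all CDS peaks did, and their median was 2.34. The other 7 centred on 1.26, with 5 above 0, where 65.1% of all CDS peaks without a match were. For all CDS peaks of the table the medians were 0.96 with a match and 0.45 without. The DICER1 medians therefore lay above the CDS medians of the table in both classes, though single DICER1 peaks of each class lay below them.

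The let-7 family, for which DICER1 is a known target, matched 4 of the CDS peaks. In 5′ to 3′ order they had log ratios of 0.90 (chr14:95574216-95574242), 1.34 (chr14:95570082-95570133), 2.41 (chr14:95569958-95570010) and 2.42 (chr14:95560394-95560470). The third of these had the highest log average of all DICER1 peaks, -4.84, and the fourth, with -5.72, the third highest. The second and the fourth also matched miR-196, whose seed overlaps that of let-7, and the fourth matched miR-18a-5p as well. Over the whole table, 350 peaks matched let-7, with a median of 1.42 and 86.3% above 0, so the DICER1 values lie on both sides of that median.

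A dense run of 7 of the CDS peaks spanned 699 nt (chr14:95569701-95570399). All 7 lay above 0, where 68.4% of all CDS peaks and 15 of the 17 DICER1 CDS peaks did. They ranged from 0.52 to 2.73, with a median of 1.71. A seed was matched by 5 of them, as by 10 of the 17 DICER1 CDS peaks and 2210 of all 8303 CDS peaks. The highest log ratio of the gene, 2.73, was at the 5′ end of this run, at a peak that matches the miR-103 family (miR-103a and miR-107; chr14:95570298-95570399). The let-7 peak with 2.41 lay in its middle, and a peak with 1.64 at its 3′ end matched both miR-19 and the miR-130 family. Upstream of the run, a peak matching miR-374 had 2.63 (chr14:95572443-95572472) and one matching miR-30 had 2.53 (chr14:95590861-95590899). Within the run, all but the let-7 peak with 2.41 were in the lowest 25% of log averages, below -6.25. The miR-374 and miR-30 peaks were there too, as were 18 of all 24 DICER1 peaks.

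In the DICER1 3'UTR 6 of 7 peaks lay above 0, a share near the 76.2% of all 3'UTR peaks. These 6 ranged from 1.09 to 1.96 and so all lay at or above 1, where 45.8% of all 3'UTR peaks did. The highest, at the 3′ end (chr14:95552632-95552677), matches the miR-103 family and miR-18a-5p, and with -5.19 it had the second highest log average of the gene. Both miR-103 family peaks of DICER1, with 2.73 and 1.96, exceeded the median of 1.23 over the 379 peaks with that match, of which 86.3% lay above 0. Peaks with the same seed could differ within this 3'UTR. Of 2 neighbouring peaks that match the miR-15 family (miR-16 among it), 372 nt apart, the upstream one had 1.60 (chr14:95554269-95554354) and the downstream one -1.43 (chr14:95553827-95553896). Over the 994 peaks with this match 79.7% lay above 0, with a median of 0.92. The value of -1.43 is the lowest of the gene, and it belonged to a peak with a higher log average, -6.12, than the upstream one, with -7.29.

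TARBP2, which encodes the Dicer partner TRBP, had 2 peaks on the plus strand of chromosome 12. Its CDS peak had a log ratio of 0.50 (chr12:53899531-53899582) and its 3'UTR peak 0.87 (chr12:53899997-53900045). Both lay above 0 and below 1, close to the regional medians of 0.58 and 0.88 over all peaks. The 3'UTR peak matches let-7 and miR-183. With the 4 of DICER1 it was the fifth let-7 peak of these mRNAs, and all 5 lay above 0, where 86.3% of all let-7 peaks did, so the count is near that of the table. The 2 peaks had log averages of -2.99 and -2.20, in the upper 75% of the table.

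ADAR, on the minus strand of chromosome 1, divided by region. Its 10 3'UTR peaks had a median of 1.36, with 9 above 0 and 6 at or above 1, where 76.2% and 45.8% of all 3'UTR peaks were. Its 4 CDS peaks had -0.35, -0.35, 0.83 and -0.48 in 5′ to 3′ order, and the first 2 overlap and carry identical values, so that they count as 1 measurement. The 3'UTR median was 1.71 above the CDS median, and 18 of the 407 genes with at least 3 peaks in both regions had a larger difference. The gene median, 0.65, was that of the table as a whole, with 726 genes lower and 715 higher among those with at least 5 peaks. With 1 peak per overlapping set the ADAR median was 1.16 over 11 peaks, and 885 of the 1214 genes with at least 5 such peaks were lower.

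The ADAR 3'UTR values did not follow the seed matches. The 7 peaks without a match had a median of 1.55, from 0.34 to 2.54, and the highest lay at chr1:154554659-154554739, between 2 further peaks with 1.68 and 1.16. The 3 matched peaks had 2.35 (miR-186-3p), 0.30 (miR-181 and miR-186-5p) and -1.13 (miR-185). Over all 3'UTR peaks of the table the order was the other way, with medians of 1.20 with a match and 0.68 without. In ADAR the lowest value was thus at a peak with a match, at chr1:154555576-154555666. The miR-185 family had a low median elsewhere too, 0.27 over 209 peaks, with 61.7% above 0. The matched ADAR peaks with 2.35 and 0.30 each overlap an unmatched one, with 0.47 and 0.34, so the classes share some sequence.

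Across all 5 mRNAs, 20 peaks matched a listed seed and 32 did not, where 31.5% of all peaks matched one. The matched ones centred on 1.47, and 15 of 20 lay above 0, where 79.2% of all matched peaks did. The unmatched ones centred on 0.49, and 19 of 32 lay above 0, where 66.2% of all peaks without a match did. The table's own medians were 1.06 and 0.48. Of the 20 matched peaks 13 were in DICER1, so the higher median rests on that gene. The 5 matched peaks below 0 were in DGCR8 (miR-146), DROSHA (miR-25 family), DICER1 (miR-15 family) and ADAR (miR-185 and miR-362).

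Most member peaks were weak. In the lowest 25% of log averages, below -6.25, lay 18 of 24 DICER1 peaks, 11 of 14 ADAR peaks, 4 of 5 DROSHA peaks and 1 of 7 DGCR8 peaks. Over the whole table weak peaks did not differ much in sign, since 68.9% of the peaks in the lowest 25% and 70.8% of the others lay above 0. DICER1 had a median of 1.45 in the lowest 25% and 1.89 over its other 6 peaks. For ADAR the 11 weak peaks had a median of 1.16, while its 3 stronger ones had -1.13, -0.48 and 0.30. The ADAR peak with the highest log ratio, 2.54, lay just under the limit, with a log average of -6.26, so this contrast depends on where the limit is set. Whether signal strength bears on the ADAR values was not tested.

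**Figure D2:**
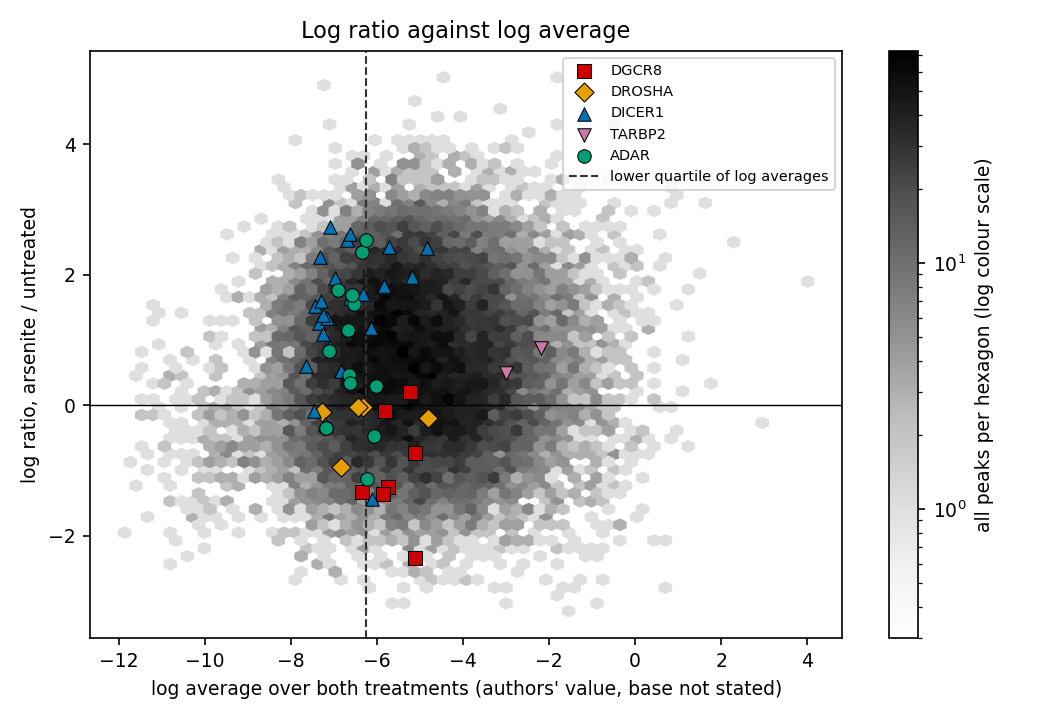
Log ratio (arsenite over untreated) against log average of each peak, both the authors' values; grey hexagons count all 24041 peaks on a log colour scale, symbols mark the member peaks and the dashed line is the lower quartile of log averages, -6.25. DICER1 and ADAR peaks sit mostly left of the line, 6 of the 7 DGCR8 peaks sit right of it, and DGCR8 holds the lowest member value, -2.34.

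The wider miRNA pathway was described with 49 further genes in 5 groups, of which 38 were listed, with 378 peaks. Of their gene medians 36 of 38 lay above 0 and 16 at or above 1, where 81.3% and 46.9% of all genes did. None lay at or below -1, where DGCR8 and 3.35% of all genes did. The median over the 38 genes was 0.74, against 0.91 over all 6088 genes. The list as a whole was near the table in size.

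Microprocessor partners were the group nearest to DGCR8 and DROSHA. All 11 were listed, 9 with a median above 0 and 1 at or above 1, where 81.3% and 46.9% of all genes were. The median over the 11 genes was 0.28. METTL3, the m6A writer that marks primary miRNAs, had the lowest median among those with at least 3 peaks, -0.81 over 3 peaks that ranged from -1.27 to 2.33. SRSF3, a splicing factor that aids Drosha cleavage, had the highest, 1.30 over 4 peaks. The helicases DDX5 and DDX17, with 22 and 31 peaks, had medians of 0.70 and 0.28, and 13 of the 22 and 21 of the 31 peaks above 0. Over all peaks, 70.3% lay above 0. HNRNPA1, which binds a few primary miRNAs, had a single peak, with -0.92.

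The other groups had no gene median below 0, while 81.3% of all genes had a median above 0. Of the 15 listed loading and RISC factors 9 had a median at or above 1, where 46.9% of all genes did. The helicase MOV10 had the highest among those with at least 3 peaks, 1.71 over 4, and AGO1, named EIF2C1 in the table, the lowest, 0.09 over 24. Among the other double-stranded RNA binding and editing proteins, STRBP had 1.71 over 3 peaks, and ADARB1, the second active A-to-I editing enzyme, had 0.02 over 32 peaks, against 0.65 for ADAR. For export and cap binding, NUP153, a nuclear pore protein, had 0.75 over 3 peaks and XPO1, the exportin of proteins and some RNAs, 0.12 over 19. Of 8 tailing and turnover genes 4 were listed, with 5 peaks in all, each above 0, where 70.3% of all peaks were.

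**Figure D3:**
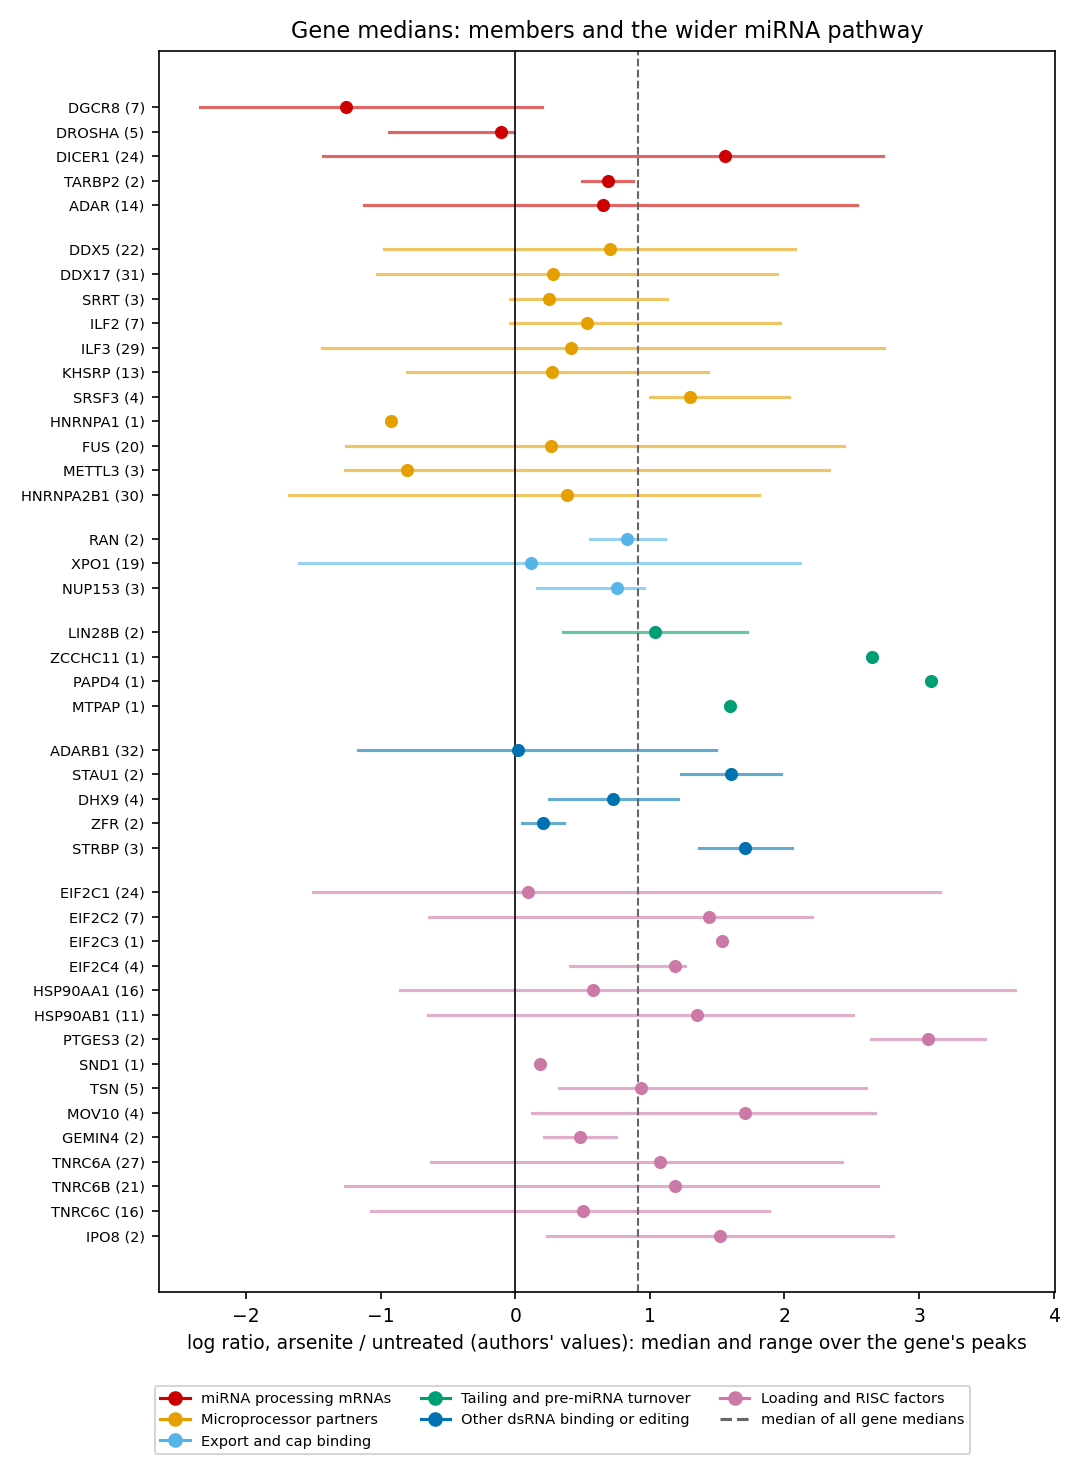
Median log ratio (points; arsenite over untreated, the authors' values) and range over peaks (lines) for the 5 listed members, at the top, and the 38 listed pathway genes, with the number of peaks in parentheses. DGCR8 has the lowest median of the plot, and DROSHA, HNRNPA1 and METTL3 are the other genes with a median below 0; the dashed line is the median of all gene medians, 0.91.

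The genes most like each mRNA, by distance over the quartiles of log ratio and the median log average among genes with at least 3 peaks, were of mixed kinds. DGCR8 lay nearest to SCARNA2, a Cajal body RNA (9 peaks, median -1.09, distance 0.38), and UBE2W, a ubiquitin-conjugating enzyme (3 peaks, median -0.999). DROSHA lay nearest to the chaperonin subunit CCT8 and the zinc finger gene ZNF445, with 3 peaks each and medians of -0.12 and -0.21. For DICER1 they were the nuclear import receptor TNPO1 (21 peaks, median 1.49) and the decapping enzyme DCP2 (13 peaks, median 1.49). For ADAR they were the chaperone HSPA8 (6 peaks, median 0.73) and RBM12 (10 peaks, median 0.42).

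The miRNAs whose seeds match these peaks were then compared on Ago2, from the LO band libraries, in arsenite-treated and untreated cells. By DESeq in the authors' deposited table none passed an adjusted p of 0.05 (0 of 1213 entries, 0%), since each adjusted value was 1, and 24 had an unadjusted p under 0.05. For the most abundant member of each of the 19 families, the log2 fold changes in the authors' deposited table ran from -0.30 for miR-185-5p to 0.30 for miR-301a-3p, with 10 above 0, 9 below and none with an unadjusted p under 0.05. The authors' deposited table gave let-7a-5p a mean normalized count of 21593 with arsenite and 19128 untreated (log2 fold change 0.17, p = 0.429, adjusted p = 1 by DESeq). For miR-103a-3p the authors' deposited table gave 26521 with arsenite and 25952 untreated (log2 fold change 0.03). For miR-16-5p, whose 2 DICER1 peaks lay on opposite sides of 0, the authors' deposited table had 1016984 with arsenite and 1001623 untreated (log2 fold change 0.02). These miRNAs differed widely in amount: let-7 held 0.337% and the miR-103 family 0.16% of the sum over mature miRNAs, against 14.3% for miR-196 and 24.3% for miR-30. A p above the threshold does not show that a miRNA was equal in both treatments.

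The miRNAs whose hairpins lie within these genes were far less abundant on Ago2 than those that match the peaks. In RefSeq (GRCh38.p14) DGCR8 hosts MIR3618 and MIR1306 and DICER1 hosts MIR3173, all on the strand of their host. The 2 arms of miR-1306 are shown because their hairpin is part of the DGCR8 gene, with bases 2 to 8 in capitals.
miR-1306-5p: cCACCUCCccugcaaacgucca
miR-1306-3p: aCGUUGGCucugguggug
In the authors' deposited table miR-1306-3p had a mean normalized count of 216 with arsenite and 259 untreated (log2 fold change -0.26, p = 0.401, adjusted p = 1 by DESeq). The authors' deposited table gave the 5p arm 114 with arsenite and 102 untreated (log2 fold change 0.15, adjusted p = 1 by DESeq). The arms differed in opposite directions, and neither passed the test. The authors' deposited table has 2 entries for miR-3618 that differ in direction: its guide had a mean of 3.97 with arsenite and was listed at 0 untreated, and the stretch of the stem upstream of it had 1.06 with arsenite and 8.95 untreated. Neither of these entries passed the authors' test. For miR-3173-5p the authors' deposited table had 33.7 with arsenite and 24.1 untreated. By the mean over both treatments in the authors' deposited table, the guide of miR-3618 ranked 1105, near the end, and miR-3173-5p 570, near the middle, of 1213 entries.

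**Figure D4:**
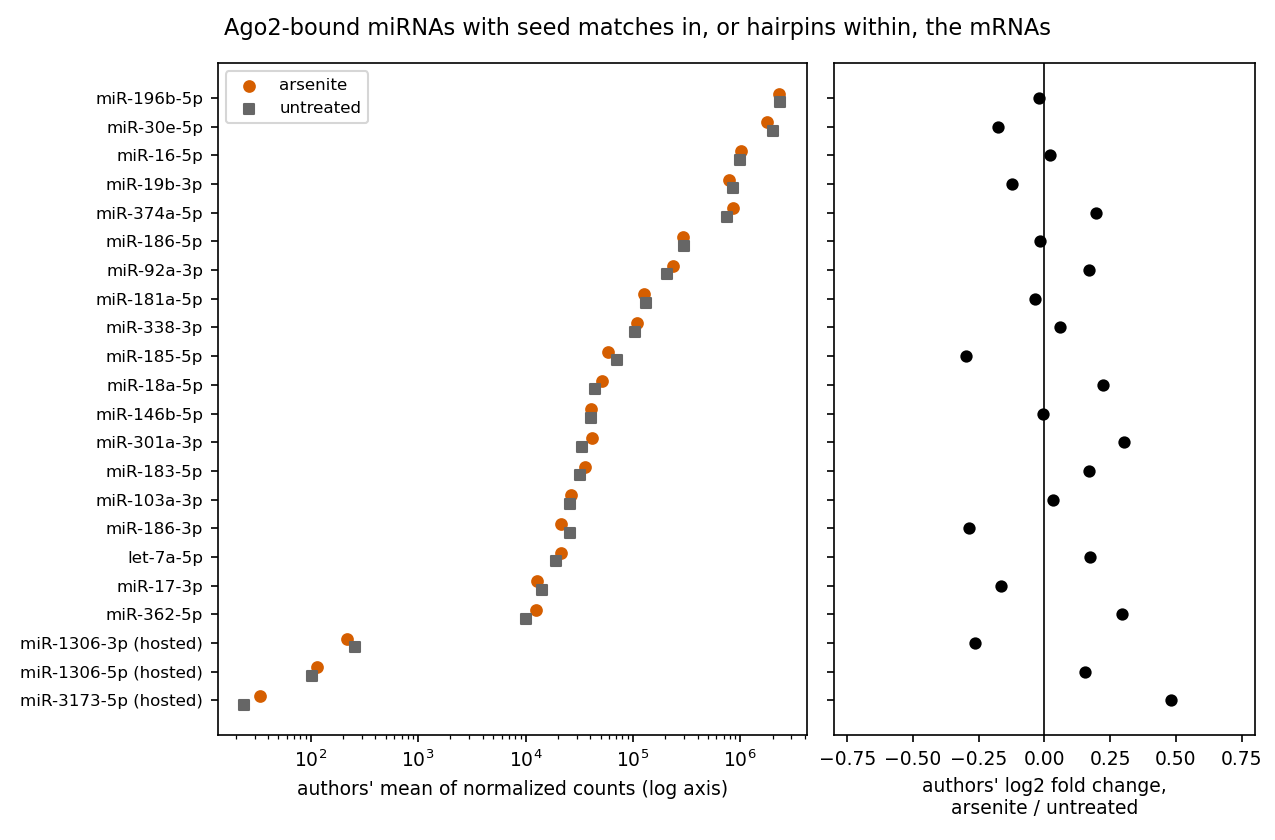
Left, the authors' mean normalized counts with arsenite (circles) and untreated (squares) on a log axis; right, the authors' log2 fold change, arsenite over untreated, for the most abundant miRNA of each of the 19 families that match member peaks and for 3 miRNAs hosted in DGCR8 or DICER1. The 19 family members lie between -0.30 and 0.30, and the hosted miRNAs are the least abundant of the plot.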

How the data were processed

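Libraries were of 3 kinds (CLIP, LO band CLIP and RNA-seq), with arsenite and untreated, giving 6 groups of 4 and 24 samples in all. Tools recorded per the submitters' processing notes are Bowtie (0.12.8), TopHat and DESeq, with hg19 as the build. How peaks were called, filtered and normalized is not given in the sources used here. Both deposited tables pool the replicates of a treatment, and 0 columns hold values of single samples. Per the file headers, the deposited peak values are a log average and a log ratio, treated as a score of unstated log base. In the miRNA table (miRBase 18 names, per the file headers) the means are signal values, read counts divided by size factors, beside the authors' fold ratio, log2 fold change and DESeq p-values and adjusted p-values. RNA-seq values were not analysed here.

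Members and lists were chosen with earlier results of these data known. Planned tests on replicates could not be run. Medians, counts and orders were computed with Python 3.11.15, pandas 2.3.3 and numpy 2.4.6. Gene medians and the search for nearest genes were checked on simulated log ratios, and the grouping of overlapping peaks on made-up intervals. Counts and orders were not checked in this way. Named genes were all members, the highest and lowest median of each pathway group among genes with at least 3 peaks, and the 2 nearest genes per member. DDX5, DDX17 and HNRNPA1 were chosen after their values were seen. The miRNAs named are those hosted in members and the most abundant of each matching family. Coordinates are hg19 as deposited, and whether starts count from 0 is not stated. Peaks were taken to overlap when they share at least 1 base. No hg19 sequence was read, so seed matches are those the authors list.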

Additional observations from a re-analysis of the deposited data

How the results depend on the processing

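No paired analysis was possible because the tables hold no replicate columns, and leaving out replicates could not be run for the same reason. Of 64 recomputed values, 48 moved by less than the spread over a gene's peaks or the Wilson 95% interval of a share, 11 moved by more and 5 changed sign, and in each the cause was not tested. The DGCR8 median was -2.34 at the peak of the highest log average alone and -0.091 at its only 3'UTR peak. With 1 peak per overlapping set it was -0.73, against -1.26 with all peaks, and that of ADAR was 1.16, against 0.65. Taking the median of all peaks as the zero point gave -0.76 for DROSHA, 0.031 for TARBP2 and -0.0025 for ADAR. The ADAR median was -0.48 with peaks in the upper 75% of log averages (3 peaks) and -0.35 with CDS peaks only. Peaks without a seed match had a median of -0.15 in the upper 75% of log averages and -0.11 in the CDS. With the upper 75% of log averages, 50% of the 18 remaining member peaks lay above 0, 27.8% at or above 1 and 27.8% at or below -1. Without DICER1, 46.4% lay above 0 and 21.4% at or above 1. Without DGCR8, 4.44% lay at or below -1. With the median of all peaks as the zero point, 26.9% lay at or above 1. The DICER1 median stayed above 0 in each of its alternatives, from 0.91 to 2.41, and that of DGCR8 below 0 in each of its own. Depth is not given, so the precision of single peaks is unknown.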
